A study of Mus musculus with 4 samples.

Results

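Lipid droplets are the organelles in which hepatocytes store triglyceride, a neutral lipid core under a phospholipid monolayer that carries a coat of proteins. Perilipins cover the surface and limit the access of lipases, CIDE proteins let droplets fuse and grow, and the lipase ATGL with its partners releases fatty acids from the core. Coat genes of this kind are known to be abundant in fatty liver. The expression of 10 such genes, chosen by name, was compared here in the liver between the HFD-WT and HFD-KO groups. They are the perilipins Plin2, Plin4 and Plin5, the CIDE genes Cidea, Cideb and Cidec, the lipase genes Pnpla2 and Pnpla3, the ATGL inhibitor G0s2 and the droplet biogenesis gene Fitm2. All 10 were found among the 25655 genes of the count table, and 9 passed the filter on low counts, the exception being Pnpla3.

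HFD-WT mice were ADAR2+/+/GluR-B R/R and HFD-KO mice were ADAR2−/−/GluR-B R/R, on a B6129S background. Both genotypes thus carried the pre-edited GluR-B allele, which keeps ADAR2-deficient mice alive, and both received a high-fat diet for 12 weeks from an age of 5 weeks. The deletion is present in the whole animal, not in hepatocytes alone. There was no chow-fed library in this comparison, so the values describe livers of each genotype on the high-fat diet and not the response to the diet. For male mice on this diet, the study reports less liver lipid and triglyceride in the knockout than in the wild type. Liver RNA was sequenced in 2 libraries per group. The study names more mice per group for its enrichment analysis of these livers than there are libraries, and how mice were assigned to libraries, singly or pooled, was not given in the sources used here, so p-values measure the spread between these libraries.

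The total count per library ranged from 24480798 to 28691330. Expression is given as CPM, the counts of a gene relative to the TMM-adjusted library size, and genotypes were compared by edgeR's quasi-likelihood test over 12967 genes with Benjamini-Hochberg adjustment. A difference was called at an adjusted p under 0.05. With 2 libraries against 2, an exact permutation test of a single value cannot give a two-sided p below 0.333. Adarb1, which encodes ADAR2, had 15.7 and 19.8 CPM in HFD-WT livers and 6.23 and 9.54 CPM in HFD-KO livers (log2 fold change -1.17, SE 0.20, adjusted p = 0.159 by edgeR). Its level was lower in the HFD-KO group without overlap, though not absent. By leaving out HFD-KO replicate 1 or 2 the adjusted p of Adarb1 became 0.000227 or 3.11e-07 by edgeR, and by leaving out HFD-WT replicate 1 or 2 it became 0.188 or 0.971. The hepatocyte markers Alb, Ttr, Apoa1, Cyp2e1, Hnf4a and Serpina1c together made up 80749 and 79764 CPM in HFD-WT and 82274 and 93863 CPM in HFD-KO livers. Of these 6 markers, 1, Serpina1c, was higher at an unadjusted p under 0.05 by edgeR, against 4.25% of all genes tested. Mitochondrial genes took between 5.80% and 7.71% of the counts, with both of these values in HFD-KO libraries.

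Plin4 and Cidec had the smallest p-values among the members, and their promoters are shown with those of Plin5, the neighbour of Plin4, and of Plin2, the most abundant member. Each line gives the 250 bases before an annotated transcription start from RefSeq on GRCm38.p6, all on the minus strand and read 5′ to 3′. Capitals mark AGGTCA or its reverse complement, the core motif bound by nuclear receptors such as the PPARs, which are known activators of droplet coat genes.
Plin4, chr17:56109783-56110032: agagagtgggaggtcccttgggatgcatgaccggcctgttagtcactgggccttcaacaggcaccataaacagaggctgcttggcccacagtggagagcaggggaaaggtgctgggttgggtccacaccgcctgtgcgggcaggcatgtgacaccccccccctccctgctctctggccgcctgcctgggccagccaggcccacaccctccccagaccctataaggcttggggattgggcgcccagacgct
Cidec, chr6:113435761-113436010: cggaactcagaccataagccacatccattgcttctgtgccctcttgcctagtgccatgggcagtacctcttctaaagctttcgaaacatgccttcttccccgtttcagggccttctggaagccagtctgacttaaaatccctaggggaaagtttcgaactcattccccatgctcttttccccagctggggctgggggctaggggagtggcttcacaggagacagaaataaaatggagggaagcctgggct
Plin5, chr17:56117549-56117798: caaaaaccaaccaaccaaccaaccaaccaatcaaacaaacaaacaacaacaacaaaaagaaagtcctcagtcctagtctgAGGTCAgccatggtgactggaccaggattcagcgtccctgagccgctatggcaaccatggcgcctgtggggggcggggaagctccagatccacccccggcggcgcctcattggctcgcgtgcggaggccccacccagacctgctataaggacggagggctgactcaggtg
Plin2, chr4:86670060-86670309: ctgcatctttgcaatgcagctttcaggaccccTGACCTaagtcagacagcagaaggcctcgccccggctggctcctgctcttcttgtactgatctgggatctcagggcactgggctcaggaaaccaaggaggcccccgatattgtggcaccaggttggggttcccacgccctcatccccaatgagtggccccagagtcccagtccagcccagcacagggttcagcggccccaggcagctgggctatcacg

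RefSeq windows were matched by symbol for 9 members, with 11 windows in all. AGGTCA, searched on both strands, stood once in the Plin5 window (from 170 to 165 bases before the start) and once in the Plin2 window (from 218 to 213 bases before it), and in no other member window. It occurred in 14% of all 32851 windows of this length. A direct repeat of AGGTCA with any 1 base between the copies, which overlaps the single motif, was in no member window and in 0.0335% of all windows. The forkhead motif GTAAACA, in 3.17% of all windows, and the E-box CACGTG, in 6.02%, were also in no member window. TGACGTCA, the cAMP response element, was found at Pnpla3 only (1.55% of all windows), and TATAAA was found at Cideb only (12.4% of all windows). A match to these letters is a description of the sequence, and binding was not measured.

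Levels of different genes were compared per exon length, in the authors' RPKM values. Plin2, the perilipin that coats most droplets outside adipose tissue, was the highest member in every library, with 357 and 394 RPKM in HFD-WT livers and 388 and 363 RPKM in HFD-KO livers. It made up between 40.0% and 45.0% of the summed RPKM of the 10 genes in a library. Cideb, the CIDE gene of normal hepatocytes that also serves VLDL lipidation, and G0s2 came next. Cideb had a mean of 167 RPKM in HFD-WT and 159 RPKM in HFD-KO livers, and G0s2 had 154 and 141 RPKM. The order of Cideb and G0s2 turned in HFD-WT replicate 2, with 163 RPKM for Cideb and 179 RPKM for G0s2, so these neighbours did not differ beyond their spread.

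In HFD-WT livers 6 further members lay close together, from a mean of 51.5 RPKM for Cidec to 24.2 RPKM for Fitm2. Between them stood Plin5 with 45.9, Cidea with 41.7, Pnpla2 with 39.7 and Plin4 with 34.0 RPKM. Neighbours in this order overlapped between their HFD-WT libraries from Cidec to Pnpla2, while Plin4 and Fitm2 lay below them in both. In HFD-KO livers Cidec had a mean of 29.1 RPKM and stood below Plin5, Cidea and Pnpla2 in both libraries, although Cidea in HFD-KO replicate 1 was hardly higher, with 25.2 against 25.1 RPKM. Pnpla3, at 0.138 RPKM or less on average in either group, was far below all others.

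**Figure D1:**
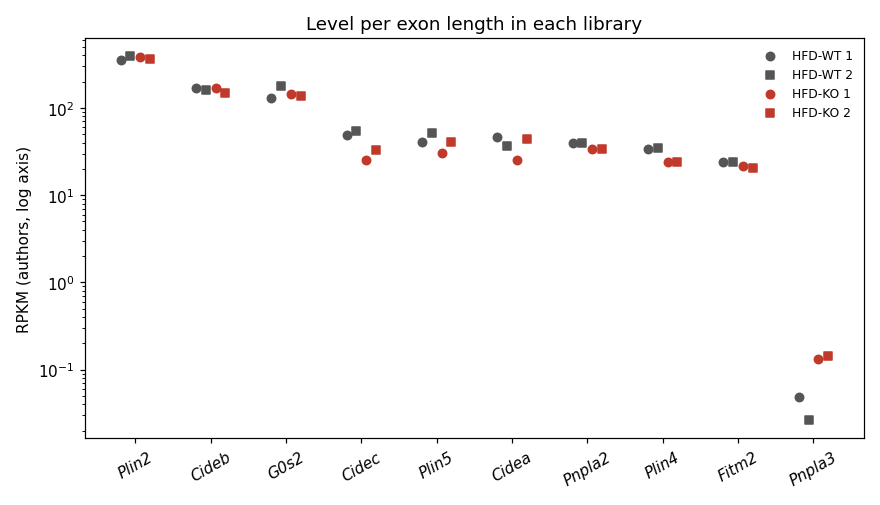
Level per exon length of each member in the 4 libraries, as the authors' RPKM on a log axis, with members ordered by their HFD-WT mean; circles are replicate 1 and squares replicate 2, grey for HFD-WT and red for HFD-KO. Plin2 is highest in every library, Cidec moves from 51.5 to 29.1 RPKM on average, and Pnpla3 lies below 0.2 RPKM throughout.

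Among the perilipins, Plin4 was lower in HFD-KO livers at an unadjusted p under 0.05, and Plin5 and Plin2 overlapped between the genotypes. Plin4, a perilipin best known from adipocytes, where it binds small nascent droplets, lies on chromosome 17 from 56407591 to 56416803 (GRCm39, as the deposited table gives it). It had 6639 and 6325 reads in HFD-WT and 4341 and 4008 reads in HFD-KO libraries, which is 229.16 and 229.85 CPM against 165 and 168 CPM. The replicates lay almost on top of each other and the groups were well apart. This was a log2 fold change of -0.46 (SE 0.077, 95% interval -0.65 to -0.28), a change of -27.5%, with an unadjusted p = 0.00045 and an adjusted p = 0.136 by edgeR.

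Plin5, the perilipin of oxidative tissues that ties droplets to mitochondria and binds ATGL and its coactivator, had 91.3 and 112 CPM in HFD-WT and 70.0 and 95.4 CPM in HFD-KO livers. HFD-KO replicate 2 fell between the HFD-WT values, so the groups overlapped. Its log2 fold change was -0.30 (SE 0.16, 95% interval -0.67 to 0.07, adjusted p = 0.639 by edgeR). Without HFD-KO replicate 1 the log2 fold change of Plin5 was -0.09, and without HFD-KO replicate 2 it was -0.54 (adjusted p = 0.0028 by edgeR). Without HFD-WT replicate 2 it was -0.14, and without HFD-WT replicate 1 it was -0.45, so the difference at Plin5 depended on which library was included.

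Plin2 had 806 and 876 CPM in HFD-WT and 894 and 850 CPM in HFD-KO livers, from 20313 reads or more in each library. The groups overlapped, with a log2 fold change of 0.05 (SE 0.097, 95% interval -0.17 to 0.28, adjusted p = 0.905 by edgeR), an interval that spans changes from -11.4% to 21.3%. The Plin4 to Plin2 ratio, which does not depend on how libraries are scaled, was -1.81 and -1.93 on the log2 scale of the counts in HFD-WT and -2.44 and -2.34 in HFD-KO libraries. The ratio was thus lower by a mean log2 difference of -0.52, with no overlap (exact two-sided permutation p = 0.333, the smallest that this design allows).

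Plin4 and Plin5 are adjacent genes on the same strand, 1797 bases apart, and Plin3, another perilipin, lies 159879 bases beyond Plin5 on that strand. Plin3 had 75.5 and 83.1 CPM in HFD-WT and 63.8 and 66.5 CPM in HFD-KO livers, without overlap (log2 fold change -0.28, SE 0.086, unadjusted p = 0.0123, adjusted p = 0.406 by edgeR). The other 12 tested genes between these perilipins or within 50000 bases of them had log2 fold changes from -0.53 to 0.22, and 5 of the 12 were below 0. This neighbourhood was looked at after the values of the perilipins were known. Hdgfl2, on the opposite strand, overlaps the end of Plin4 by 17 bases, and whether counting used strand was not given in the sources used here. Hdgfl2 had 645 to 819 reads per library, far fewer than Plin4.

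**Figure D2:**
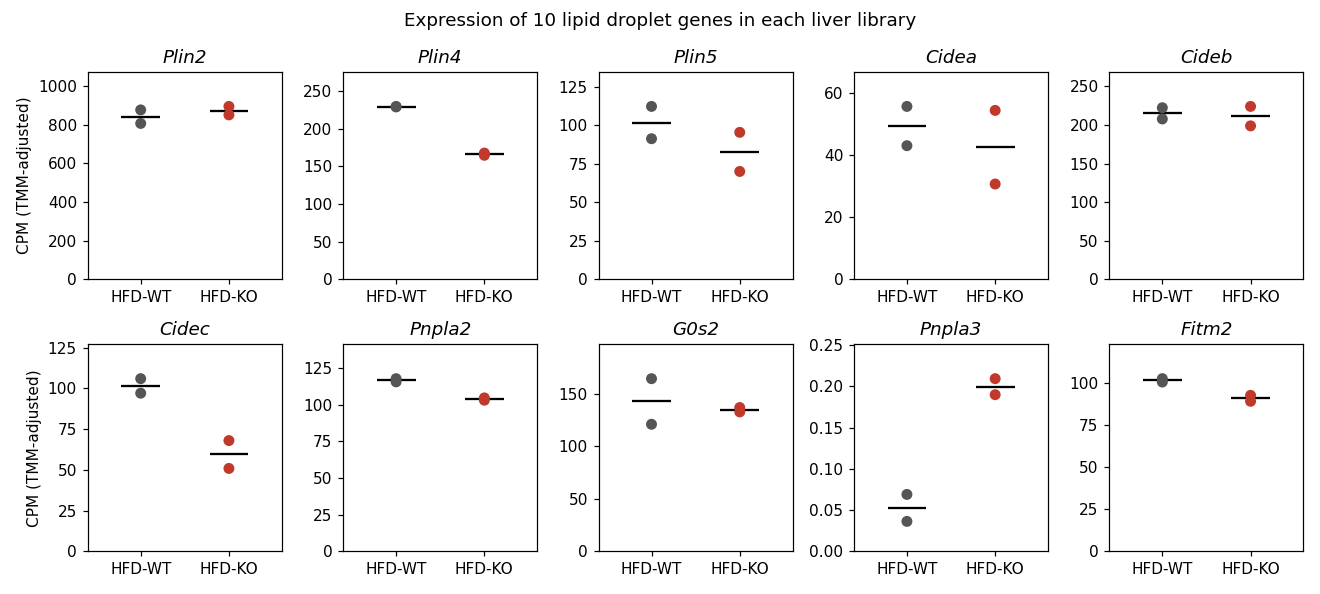
Expression of the 10 members in each library in TMM-adjusted CPM on linear axes that start at 0; points are libraries, grey for HFD-WT and red for HFD-KO, and bars are the means of 2 libraries. Plin4, Cidec, Pnpla2 and Fitm2 have both HFD-KO points below both HFD-WT points, Pnpla3 has the opposite order at a level of 5 reads or fewer per library, and the other 5 overlap.

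Of the CIDE genes, Cidec was lower in HFD-KO livers at an unadjusted p under 0.05, Cidea varied widely between HFD-KO libraries and Cideb overlapped between the genotypes. Cidec, also known as Fsp27, promotes the exchange of lipid between touching droplets and lies on chromosome 6 from 113401595 to 113412721. It had 2811 and 2915 reads in HFD-WT and 1340 and 1624 reads in HFD-KO libraries, which is 97.0 and 106 CPM against 50.9 and 68.0 CPM. Both HFD-KO libraries were below both HFD-WT libraries. Their log2 fold change was -0.77 (SE 0.14, 95% interval -1.09 to -0.45), a change of -41.5% and the largest among the 9 tested members, with an unadjusted p = 0.000661 and an adjusted p = 0.168 by edgeR.

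Cidea, which acts like Cidec and is typical of brown fat and of fatty liver, had 55.8 and 43.1 CPM in HFD-WT and 30.7 and 54.5 CPM in HFD-KO livers. HFD-KO replicate 1 was the lowest of the 4 libraries and HFD-KO replicate 2 was nearly as high as HFD-WT replicate 1. With this spread the log2 fold change was -0.22 (SE 0.25, 95% interval -0.80 to 0.36, adjusted p = 0.838 by edgeR). It turned to 0.14 without HFD-KO replicate 1, became -0.69 without HFD-KO replicate 2 (adjusted p = 0.000775 by edgeR) and was -0.02 without HFD-WT replicate 1 and -0.39 without HFD-WT replicate 2. The direction at Cidea thus rested on single libraries.

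Cideb had 222 and 208 CPM in HFD-WT and 224 and 199 CPM in HFD-KO livers (log2 fold change -0.02, SE 0.093, 95% interval -0.24 to 0.19, adjusted p = 0.962 by edgeR). Nop9 on the opposite strand shares 1451 bases of its locus with Cideb and had 483 to 502 reads per library, against 4751 or more for Cideb. The log2 ratio of Cidec to Cideb counts was -1.20 and -0.97 in HFD-WT and -2.14 and -1.55 in HFD-KO libraries. Cidec was thus lower relative to Cideb by a mean of -0.76 on the log2 scale (exact two-sided permutation p = 0.333, the smallest possible). For Cidea relative to Cideb the mean difference was -0.23 and the libraries overlapped (exact two-sided permutation p = 1).

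Of the genes of lipolysis, the lipase gene Pnpla2 did not pass the test, with both HFD-KO values below both HFD-WT values, and its inhibitor G0s2 overlapped. Pnpla2 encodes ATGL, the lipase that takes the first fatty acid from triglyceride. It had 118 and 116 CPM in HFD-WT and 103 and 105 CPM in HFD-KO livers, with tight replicates and no overlap. Its log2 fold change was -0.17 (SE 0.076, 95% interval -0.35 to 0.01, unadjusted p = 0.0613, adjusted p = 0.581 by edgeR), a change of -11.0%. With the library size alone as scaling, which shifted the median gene by -0.05, it was -0.21 with an unadjusted p = 0.0246.

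G0s2, a small protein that binds ATGL and blocks it, had 121 and 164 CPM in HFD-WT and 137 and 133 CPM in HFD-KO livers. The HFD-KO values lay between the HFD-WT values, with a log2 fold change of -0.08 (SE 0.14, 95% interval -0.41 to 0.24, adjusted p = 0.895 by edgeR). Without HFD-WT replicate 2, the highest library, it was 0.16, and without HFD-WT replicate 1 it was -0.29. The G0s2 locus lies wholly within that of Lamb3 on the opposite strand, which had 443 to 525 reads per library against 3174 or more for G0s2. On the log2 scale, the count ratio of inhibitor to lipase was 0.04 and 0.51 in HFD-WT and 0.41 and 0.35 in HFD-KO libraries, again overlapping (exact two-sided permutation p = 1). The ratio of Plin5 to Pnpla2 overlapped as well, with a mean log2 difference of -0.14 (exact two-sided permutation p = 0.667). Plin2 relative to Pnpla2 was 2.78 and 2.92 on the log2 scale in HFD-WT and 3.12 and 3.02 in HFD-KO libraries, higher by 0.22 without overlap (exact two-sided permutation p = 0.333, the smallest possible).

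Pnpla3, the adiponutrin gene and a known target of SREBP-1c, was barely detected. It had 2 and 1 reads in HFD-WT and 5 and 5 reads in HFD-KO libraries, near or below a floor set here at 3 counts. That floor was 0.105 to 0.123 CPM of the library size without TMM adjustment. Summed over a group this was 3 reads (95% exact Poisson interval 0.619 to 8.77) against 10 reads (4.80 to 18.4). The ratio of HFD-KO to HFD-WT was 3.75, with a 95% interval from 0.965 to 21.2 that covers counting error only, so a difference was not detectable at this depth. Fitm2, an endoplasmic reticulum protein needed for droplets to bud, had 103 and 101 CPM in HFD-WT and 92.9 and 89.4 CPM in HFD-KO livers, without overlap. The log2 fold change of Fitm2 was -0.16 (SE 0.078, 95% interval -0.34 to 0.02, unadjusted p = 0.0761, adjusted p = 0.608 by edgeR), and the unadjusted p was 0.0336 with the library size alone as scaling.

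**Figure D3:**
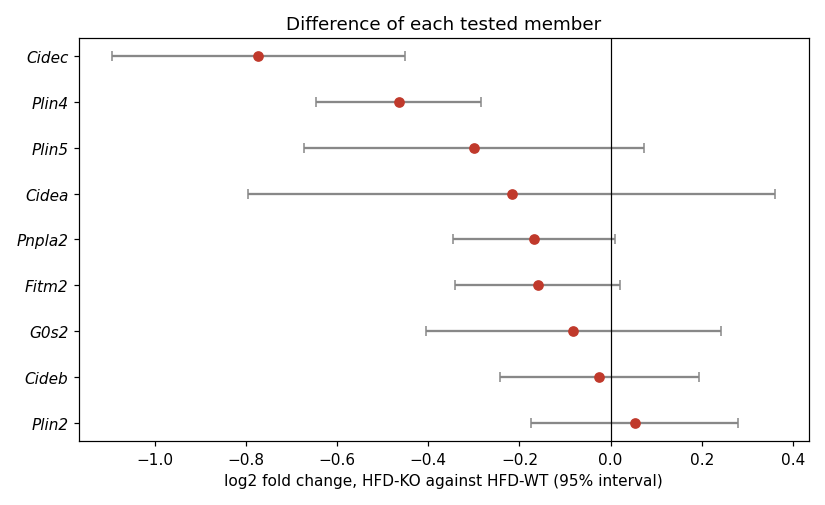
Log2 fold change between the genotypes (HFD-KO over HFD-WT) for the 9 tested members, with 95% intervals from edgeR's quasi-likelihood fit; the vertical line marks no difference. The intervals of Cidec (-1.09 to -0.45) and Plin4 (-0.65 to -0.28) lie below 0, and the other 7 include 0.

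Of the 9 tested members, 0 had an adjusted p under 0.05 by edgeR, against 10 of all 12967 genes (0.0771%; 0.0231% lower and 0.054% higher). At an unadjusted p under 0.05, 2 members, Plin4 and Cidec, were lower and 0 were higher. Of all genes tested, 8.98% had such a p, with 4.73% of all genes lower and 4.25% of all genes higher. These were 613 lower and 551 higher genes, and 894 lower and 345 higher genes with the library size alone as scaling, with which Pnpla2 and Fitm2 passed too. Plin4 and Cidec ranked 43 and 51 by p among all genes tested. DESeq2's Wald test gave an adjusted p under 0.05 for the same 2 members and limma-voom for 0 of them. For 4 members, Plin4, Cidec, Pnpla2 and Fitm2, both HFD-KO values were below both HFD-WT values, an order found for 20.3% of all genes tested, and 0 tested members had the opposite order, found for 20.5%. The log2 fold change was below 0 for 8 of the 9 members, against 48.4% of all genes tested. The median over the members was -0.17 against 0.0068 over all genes tested. Members and lists were chosen with earlier results of these data known, so such shares are a description and not an independent test.

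Plin4 and Cidec kept an unadjusted p under 0.05 in all 10 alternative fits, and their adjusted p crossed 0.05 in some. With no filter on low counts, edgeR gave an adjusted p = 0.0244 for Plin4 and 0.00525 for Cidec, and 162 genes in all then passed. DESeq2's Wald test gave an adjusted p = 0.00135 for Plin4 and 0.000273 for Cidec, among 115 genes. When HFD-KO replicate 1 was left out, the adjusted p by edgeR was 0.0026 for Plin4 and 0.00023 for Cidec, and when HFD-KO replicate 2 was left out it was 0.00229 and 1.01e-07. Leaving out HFD-WT replicate 1 gave an adjusted p = 0.494 for Plin4 and 0.323 for Cidec by edgeR, and without HFD-WT replicate 2, where 0 genes passed, it was 1 for both. Over these 4 fits the log2 fold change of Plin4 ranged only from -0.48 to -0.45, while that of Cidec ranged from -0.997 to -0.58.

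**Figure D4:**
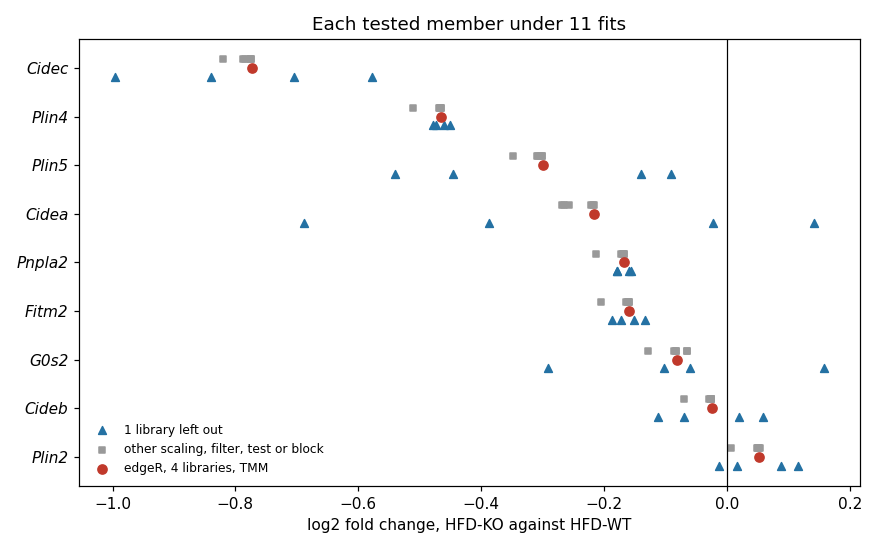
Log2 fold change of each tested member in 11 fits; the red circle is edgeR with 4 libraries and TMM, grey squares are other scalings, filters, tests or the replicate block, and blue triangles leave out 1 library. The triangles of Plin4 lie between -0.48 and -0.45, those of Cidec between -0.997 and -0.58, and those of Cidea between -0.69 and 0.14.

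The spread between replicates differed among members. Between the HFD-KO libraries, Cidec, Plin5 and Cidea were each higher in replicate 2, by 0.42, 0.45 and 0.83 on the log2 scale of CPM, while the median absolute difference over tested genes with at least 10 CPM was 0.11. The remaining tested members differed by no more than 0.17 in either direction. Between the HFD-WT libraries, G0s2 and Plin5 were higher in replicate 2 by 0.44 and 0.30, and Cidea was lower there (-0.37), with a median absolute difference over genes of 0.087. Plin4 was the most even tested member between the HFD-WT libraries, with a difference of 0.0044. Between the HFD-KO libraries it differed by 0.03 and Pnpla2 by 0.02.

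Markers of other cells were examined beside these values, because Plin4, Cidea and Cidec are also adipocyte genes. Of 6 adipocyte markers, Lep had 0 reads in the 4 libraries, and Adipoq, Retn and Plin1 each had at most 0.152 CPM in a library. The summed level of the 6 was 17.5 and 16.7 CPM in HFD-WT and 14.999 and 35.0 CPM in HFD-KO livers, nearly all of it from Cfd and Fabp4. Cfd had 4.56 and 2.04 CPM in HFD-WT and 5.01 and 7.58 CPM in HFD-KO livers, higher in both HFD-KO libraries (log2 fold change 0.92, SE 0.37, unadjusted p = 0.0386, adjusted p = 0.518 by edgeR). Fabp4 had 12.8 and 14.6 CPM in HFD-WT and 9.72 and 27.3 CPM in HFD-KO livers, so it overlapped between the genotypes. Cidec had 50.9 to 106 CPM over the 4 libraries, and the part of adipocyte RNA in its values was not tested. All 8 macrophage markers (Clec4f, Cd5l, Timd4, Adgre1, Csf1r, Mpeg1, Cd68 and Trem2) had a log2 fold change below 0, and 5 of them an unadjusted p under 0.05 by edgeR. Of all genes tested, 48.4% had a log2 fold change below 0 and 4.73% were lower at such a p. The 8 macrophage markers summed to 339 and 428 CPM in HFD-WT and 274 and 253 CPM in HFD-KO livers.

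The 6 stellate cell markers summed to 136 and 157 CPM in HFD-WT and 118 and 94.9 CPM in HFD-KO livers, with none of the 6 at 0. Of these markers, Reln, Colec11 and Col1a1, 3 of the 6, were lower at an unadjusted p under 0.05 by edgeR, against 4.73% of all genes tested. Lrat had a log2 fold change of -0.09. Des and Acta2, with 0.0082 and 0.07, overlapped between the genotypes. Hba-a1, Hbb-bs and Alas2 of red blood cells summed to 463 and 379 CPM in HFD-WT against 503 and 726 CPM in HFD-KO livers. Each was higher in both HFD-KO libraries, an order found for 20.5% of all genes tested. Their log2 fold changes were 0.58, 0.62 and 0.15. The 5 endothelial markers summed to 192 and 207 CPM against 193 and 205 CPM. The 4 cholangiocyte markers summed to 5.66 to 7.25 CPM and the 3 leukocyte markers to 8.87 to 15.7 CPM per library. The part of these cell types in the values of Plin4 and Cidec was not tested, and in bulk liver RNA fewer cells of a type and less RNA per cell cannot be told apart.

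Other genes of the droplet were taken from a list of 37 symbols, of which 35 were matched by name and 32 were tested. By edgeR, 0 had an adjusted p under 0.05, and at an unadjusted p under 0.05, 6 were lower and 2 were higher. Of all genes tested, 4.73% were lower and 4.25% higher at that threshold by edgeR. DESeq2's Wald test gave 7 such genes of the list in all, beside 373 lower and 298 higher genes among all 12967. The median log2 fold change of the 32 was -0.04. On the droplet surface, Hsd17b13, a hepatocyte droplet protein related to steroid dehydrogenases, had 542 and 604 CPM in HFD-WT and 453 and 399 CPM in HFD-KO livers (log2 fold change -0.43, SE 0.10, adjusted p = 0.289 by edgeR). Aifm2, which protects membrane lipids from peroxidation, had 53.8 and 53.5 CPM against 41.7 and 43.0 CPM (log2 fold change -0.34, unadjusted p = 0.0032). With Plin3 these were the 3 of 10 tested surface genes with an unadjusted p under 0.05, all of them lower. Hilpda, a hypoxia-induced inhibitor of ATGL, had 2.59 and 2.98 CPM in HFD-WT and 2.01 and 9.33 CPM in HFD-KO livers, so that its log2 fold change of 1.02 (SE 0.59) came from HFD-KO replicate 2.

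Among 9 tested genes of lipolysis, Lipa, the lysosomal acid lipase, had 238 and 242 CPM in HFD-WT and 213 and 207 CPM in HFD-KO livers (log2 fold change -0.19, unadjusted p = 0.0415). Ddhd2, a triglyceride hydrolase best known from neurons, had 24.8 and 24.7 CPM against 27.0 and 30.2 CPM (log2 fold change 0.21, unadjusted p = 0.0483). By edgeR the adjusted p was 0.529 for Lipa and 0.549 for Ddhd2. The unadjusted p of Lipa was 0.0515 by DESeq2's Wald test and 0.0352 by limma-voom, and that of Ddhd2 was 0.156 and 0.0598. Abhd5, the coactivator of ATGL, had 30.3 and 30.4 CPM against 28.02 and 24.2 CPM, with a log2 fold change of -0.21 (SE 0.094, unadjusted p = 0.056), of about the size seen for Pnpla2. The hormone-sensitive lipase gene Lipe had 19.3 and 18.8 CPM against 21.3 and 20.0 CPM (log2 fold change 0.12, unadjusted p = 0.206).

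Among 13 tested genes of droplet biogenesis and triglyceride synthesis, 2 were lower and 1 was higher at an unadjusted p under 0.05 by edgeR. The shares over all genes tested were 4.73% lower and 4.25% higher. Lpin1, a phosphatidate phosphatase that makes diacylglycerol, had 162 and 334 CPM in HFD-WT and 98.5 and 112 CPM in HFD-KO livers (log2 fold change -1.24, SE 0.29, unadjusted p = 0.0033, adjusted p = 0.268 by edgeR). Its HFD-WT libraries differed widely, and without HFD-WT replicate 2 the log2 fold change was -0.62 (adjusted p = 0.747 by edgeR), and without HFD-WT replicate 1 it was -1.67 (adjusted p = 0.0158). Lpin2, of the same family, had 429.5 and 448 CPM against 335 and 367 CPM (log2 fold change -0.32, SE 0.090, unadjusted p = 0.0081). Acsl3, an acyl-CoA synthetase of nascent droplets, was the higher gene, with 10.7 and 10.3 CPM against 16.2 and 14.1 CPM (log2 fold change 0.53, SE 0.11, unadjusted p = 0.0018, adjusted p = 0.233 by edgeR). Dgat2, which makes most triglyceride for droplets, had 564 and 615 CPM against 582 and 573 CPM and overlapped. Calls on these genes changed with the libraries, the filter and the test. With no filter on low counts, edgeR gave Lpin1 and Acsl3 an adjusted p of 0.0101 and 0.0482, among 162 genes that then passed. DESeq2's Wald test gave Hsd17b13 an adjusted p of 0.0301, among 115 genes, and Lpin1, Lpin2 and Acsl3 did not pass by it. With 1 library left out, the log2 fold change ranged from -0.52 to -0.34 for Hsd17b13 and from -1.67 to -0.62 for Lpin1. The range was -0.39 to -0.26 for Lpin2 and 0.43 to 0.62 for Acsl3, so each gene kept its direction.

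Of 13 regulators known to act on droplet genes, 0 had an adjusted p under 0.05 by edgeR and 1 an unadjusted p under 0.05, against 8.98% of all genes tested. The 1 regulator was Mlxipl, which encodes the glucose-responsive factor ChREBP, with 225 and 211 CPM in HFD-WT and 279 and 243 CPM in HFD-KO livers (log2 fold change 0.26, SE 0.097, unadjusted p = 0.0296, adjusted p = 0.493 by edgeR). With 1 library left out, the log2 fold change of Mlxipl ranged from 0.16 to 0.36. With the library size alone as scaling, its unadjusted p was 0.067 by edgeR. Ppara had 126 and 113 CPM against 96.3 and 135 CPM, and Pparg had 21.4 and 20.9 CPM against 22.2 and 17.7 CPM, both overlapping. Srebf1 had 130.3 and 127 CPM against 122 and 116 CPM, with a log2 fold change of -0.11 (SE 0.079, unadjusted p = 0.195). Foxo1, an activator of ATGL expression, had 52.8 and 66.3 CPM against 48.5 and 50.8 CPM (log2 fold change -0.26, SE 0.12, unadjusted p = 0.0589).

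**Figure D5:**
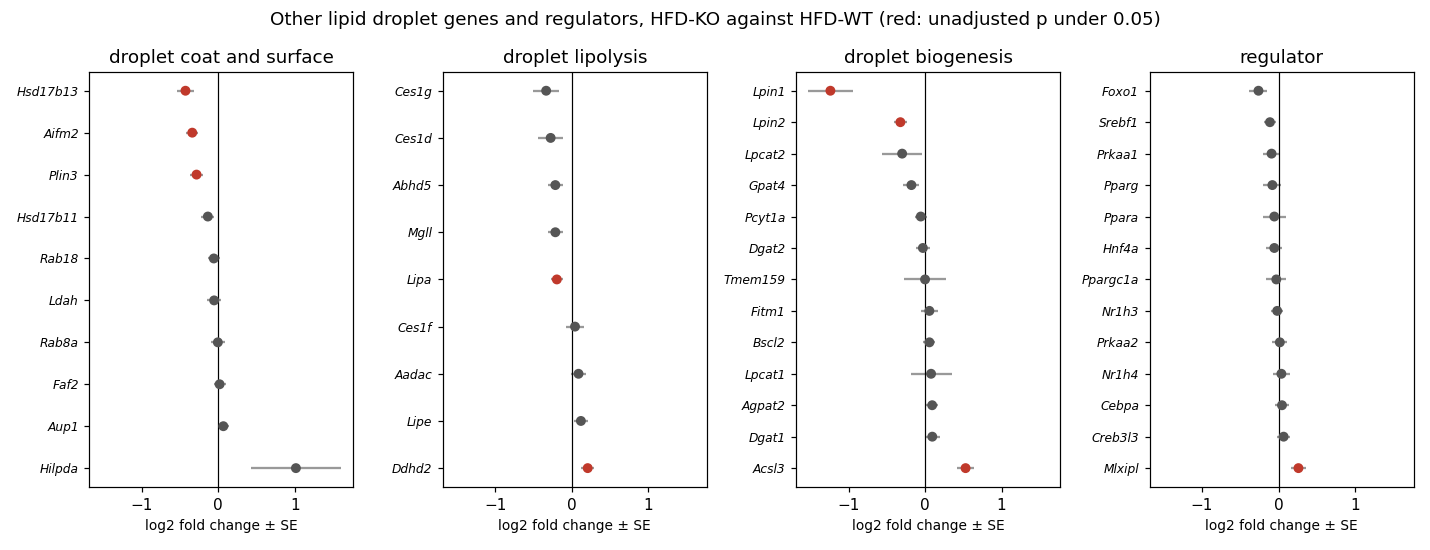
Log2 fold change between the genotypes (HFD-KO over HFD-WT) with its SE for the other tested droplet genes, in 3 groups, and for 13 regulators; red points have an unadjusted p under 0.05 by edgeR. Lpin1 lies farthest to the left at -1.24, Hsd17b13, Aifm2, Plin3, Lpin2 and Lipa are also red and below 0, and Ddhd2, Acsl3 and Mlxipl are red and above 0.

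The genes whose expression over the 4 libraries was most like that of Plin4, the member with the smallest p, were Aldh1b1, Arhgef37, Cln6, Gbe1 and Iqgap1. Likeness was the Euclidean distance between centred log2 CPM values among 7611 genes with a mean of at least 10 CPM that were no members. The distances ran from 0.036 for Aldh1b1 to 0.089 for Iqgap1 (Pearson's r of 0.999 and 0.982 over 4 libraries). Aldh1b1, a mitochondrial aldehyde dehydrogenase, had 103 and 105 CPM in HFD-WT and 76.7 and 77.1 CPM in HFD-KO livers. Since 62 genes had r over 0.99 with Plin4 over only 4 libraries, these values describe the libraries.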

How the data were processed

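Livers of 2 HFD-WT and 2 HFD-KO mice or pools were compared by RNA-seq. The authors prepared directional MGI libraries, sequenced paired ends, aligned them with the MGI tool and quantified GENCODE genes in Partek Genomics Suite. Versions, strand use and multimapping were not given in the sources used here. The methods name mm10, whereas the count table gives GRCm39 positions.

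The deposited counts are whole reads per gene without normalization and were the only values tested. The authors' RPKM, scaled by exon length and depth, served for levels between genes. The deposited TPM values and the deposited CPM values, a score on an adjusted library size, were not used.

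Tests were run with edgeR 4.0.16 in R 4.3.3 (filterByExpr, TMM, quasi-likelihood test, Benjamini-Hochberg adjustment over 12967 genes). The common biological coefficient of variation was 0.102. Alternatives were DESeq2 1.42.0, limma-voom 3.58.1, other scalings, no filter, a replicate block and leaving out each library. The procedure was also run on simulated counts. These gave every gene the common coefficient of variation, so they cannot show how it performs on genes with a wider spread. The sample labels give the groups. Named genes were all members, list genes with an unadjusted p under 0.05 with at most 4 others per list, Adarb1, and the 5 genes most like the member with the smallest p. The members and lists were chosen with earlier results of these data known. Intervals on reads cover counting error only. Figures were drawn with matplotlib 3.10.9.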

Additional observations from a re-analysis of the deposited data

How the results depend on the processing

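The number of genes with an adjusted p under 0.05 was 10, and it was 6 with the library size alone, 162 with no filter, 20 with the replicate block and 115 by the Wald test of DESeq2. When 1 library was left out, it ranged from 0 to 705, with 0 without HFD-WT replicate 2, 411 without HFD-KO replicate 2 and 705 without HFD-KO replicate 1. Members with an adjusted p under 0.05 numbered 0, and 2 both with no filter and by the Wald test of DESeq2, with a range of 0 to 4 when 1 library was left out (2 without HFD-KO replicate 1 and 4 without HFD-KO replicate 2). At an unadjusted p under 0.05 there were 2 members, 4 with the library size alone and 2 to 4 when 1 library was left out. The other droplet genes with such a p numbered 8, and 3 to 13 when 1 library was left out, the extremes without HFD-WT replicate 2 and HFD-KO replicate 1. Where a lone library remained in a group, it was assumed to vary like the other group. Here 4 members changed sign in such fits, with log2 fold changes from -0.0125 to 0.12 for Plin2, -0.69 to 0.14 for Cidea, -0.11 to 0.058 for Cideb (0.019 without HFD-WT replicate 1) and -0.29 to 0.16 for G0s2. The causes were not tested.

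Replicate numbers recur in both groups, but no source describes a pairing. Deviations of same-numbered libraries from their group means had a correlation of -0.08 across 12967 genes. With 2 libraries per group, this single value cannot decide whether the libraries were paired. In the edgeR fit with the replicate block, 0 members passed after adjustment and 3 passed before it, Plin5 beside Plin4 and Cidec. The adjusted p of Adarb1 was 0.04 with the replicate block, by edgeR.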
